A study of Mus musculus with 24 samples.

Results

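Helper T cells that carry CD4 and lack Foxp3 were followed here in Panc02 tumors, grown under the skin from a mouse pancreatic cancer cell line. The helpers were chosen by their counts of unique molecular identifiers (UMIs), each of which stands for 1 captured RNA molecule. Its barcode had to hold at least 1000 UMIs with less than 10% of them mitochondrial. It also had to hold at least 1 UMI of Cd4 and at least 1 of the CD3 genes Cd3d, Cd3e, and Cd3g together. No UMI of Foxp3, Cd8a, Cd8b1, Cd79a, or Lyz2 and at most 1 of C1qb were allowed. This gave 1050 helpers, 0.868% of the 120912 cells that passed the limits on UMIs and mitochondrial share, out of 144994 barcodes. They were 6.29% of 16704 T cells, counted as cells with a CD3 UMI under the same limits on the B cell and myeloid genes. Beside them stood 10917 CD8 T cells and 269 regulatory T cells, which met the same rule but held Foxp3.

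Helper T cells recognize peptides on MHC class II and act mainly through other cells. CD40 ligand, encoded by Cd40lg, licenses dendritic cells and B cells. IL-2 drives the growth of T cells, GM-CSF (Csf2) acts on myeloid cells, and IFN-γ (Ifng) on macrophages and on tumor cells. Naive helpers recirculate through lymph nodes with the help of CCR7, and effector helpers are sorted by their main factors and cytokines into Th1, Th2, Th17, and follicular helper (Tfh) cells. Regulatory T cells share CD4 but restrain responses, and Foxp3 is their defining factor.

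The mice were male C57BL/6, by the methods 6 to 7 weeks old at implantation, and all carried Panc02 tumors. PancVAX is a vaccine of neoantigen peptides with AddaVax and a STING agonist, given on days 12 and 19, with PBS in its place in the other mice. Anti-PD-1 was given from day 12, with isotype antibodies as the control. Anti-CTLA-4 was given on days 15 and 22 by the methods, and on days 15 and 19 by a figure legend. Tumors were taken on day 38 by the methods. The 8 treatments were isotype control, anti-PD-1, anti-CTLA-4, and both antibodies, each without PancVAX and with it, and values are given below in that order. Tumors were pooled by treatment, and each treatment had 1 library of the unenriched suspension (whole tumor) and 1 of cells enriched for leukocytes on Percoll, 16 libraries in all. The preparations were also the sequencing batches. Both libraries of a treatment were summed to its pool, so that each agent was compared over 4 pools with it and 4 without. Each treatment had 1 pool, so the P values below rest on the spread between pools of different treatments. They do not measure the spread between mice or between pools treated alike. Libraries held 77132398–176233225 UMIs and 18–152 helpers each. Of 132035 barcode sequences, 9.20% occurred in 2 or more libraries, and 2 were shared by helpers of 2 libraries.

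The label was first checked against the genes that mark these cells. Cd4 and the CD3 genes chose the cells, so their presence is no finding, and 592 helpers (56.4%) held exactly 1 UMI of Cd4. Cd40lg was detected in 29.9% of helpers, in 1.15% of CD8 T cells, in 1.49% of regulatory T cells, and in 0.0182% of 21976 macrophages, which are not known to express it. Csf2 was found in 6.57% of helpers, 1.21% of CD8 T cells, and 0.164% of macrophages, and in 0 of 269 regulatory T cells, which allows a share of up to 1.12% of cells with a UMI (3 cells). Il2 was found in 1.43% of helpers and 0.0916% of CD8 T cells. The median cell held 3449 UMIs among helpers, 4070 among regulatory T cells, 4350 among CD8 T cells, and 7250 among macrophages. Depth therefore did not favor the helpers. With every cell thinned to 1000 UMIs, Cd40lg remained in 11.1% of helpers and 0.366% of CD8 T cells. Cxcr3, the chemokine receptor of Th1 cells, did not set the helpers apart, at 25.3% against 19.2% of CD8 T cells and 36.4% of regulatory T cells. Cd4 itself was detected in 10.8% of macrophages.

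In parts the label did not hold. Of the helpers, 90 lay above the upper limits that the study set on genes or UMIs, and these held 36.2% of all helper UMIs. Krt8 or Krt18, keratins of epithelial and tumor cells, were detected in 71.1% of them and in 14.7% of the others. A cluster of 108 cells described below carried the genes of regulatory T cells despite its 0 Foxp3 UMIs. At the edge of the rule, 93 regulatory T cells held exactly 1 Foxp3 UMI, 22 helpers held under 1200 UMIs, and 14 had a mitochondrial share of 9% or more. Another 4269 T cells held neither Cd4 nor Cd8 UMIs and 199 held both. Neither kind was counted as helpers, but both were among the 16704 T cells on which the helper shares rest. Of the genes that define other lineages, Ms4a1, Siglech, and Klra8 were at 0 in all helpers, and Ncr1 was detected in 0.286%, Trdc in 0.667%, and Csf1r in 1.33%. Klra4 of the NK list was found in 5.43% of all helpers and in 1.06% of those outside the 3 clusters set apart below, and Tcrg-C2, a constant segment of the γ chain, in 2.19%. Genes of antigen-presenting cells were more frequent. C1qa, of which no limit was set, was found in 11.0%, Fcer1g in 11.3%, and Apoe in 15.8%. The class II genes H2-Aa and H2-Ab1 were found in 21.7% and 17.2%, and their chaperone Cd74 in 51.0%.

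The helpers made up a larger share of the T cells in each pool with PancVAX than in any without. Without PancVAX they were 55 of 1212 T cells (4.54%), 87 of 1434 (6.07%), 73 of 1761 (4.15%), and 88 of 1843 (4.77%). With PancVAX they were 113 of 1674 (6.75%), 288 of 3867 (7.45%), 159 of 2178 (7.30%), and 187 of 2735 (6.84%). The groups did not overlap. The means were 7.08% ± 0.342% with PancVAX and 4.88% ± 0.832% without (SD, n = 4 each), a difference of 2.20 points. Over all 70 splits of the pools this gave P = 0.0286 (exact two-sided permutation test), the smallest the design allows. Adjusted over the 3 agents it was 0.0857, so this result did not pass the correction and could not have passed it alone. With every cell thinned to 1000 UMIs before the rule was applied, the difference was 0.629 points (exact permutation P adjusted over the 3 agents 0.0857). Of helpers thinned to 1000 UMIs only 40.4% kept a Cd4 UMI, so the differences in points before and after thinning are not on one scale.

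Neither antibody gave a difference in the share that passed. Helpers were 6.28% of T cells with anti-PD-1 and 5.68% without (exact permutation P = 0.543), and 5.76% with anti-CTLA-4 and 6.20% without (exact permutation P = 0.743). The splits did not hold PancVAX fixed, so the spread between pools held the PancVAX difference as well. Between pools that differed in anti-PD-1 alone, the share was higher with it, except for 6.84% against 7.30% under PancVAX plus anti-CTLA-4. Between pools that differed in anti-CTLA-4 alone, it was lower with it, except for 7.30% against 6.75% under PancVAX without anti-PD-1. By preparation they were 5.60% of T cells after Percoll and 6.46% without it, and Percoll was higher in 2 of 8 treatments (exact sign-flip permutation test over 256 patterns, P = 0.0547). Without the anti-CTLA-4 pool or without the pool given all 3 agents, the same exact test gave P = 0.0469. The small difference by anti-CTLA-4, -0.44 points, turned to 0.103 without the anti-CTLA-4 pool. The plot of shares shows each pool with its counting error.

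**Figure D1:**
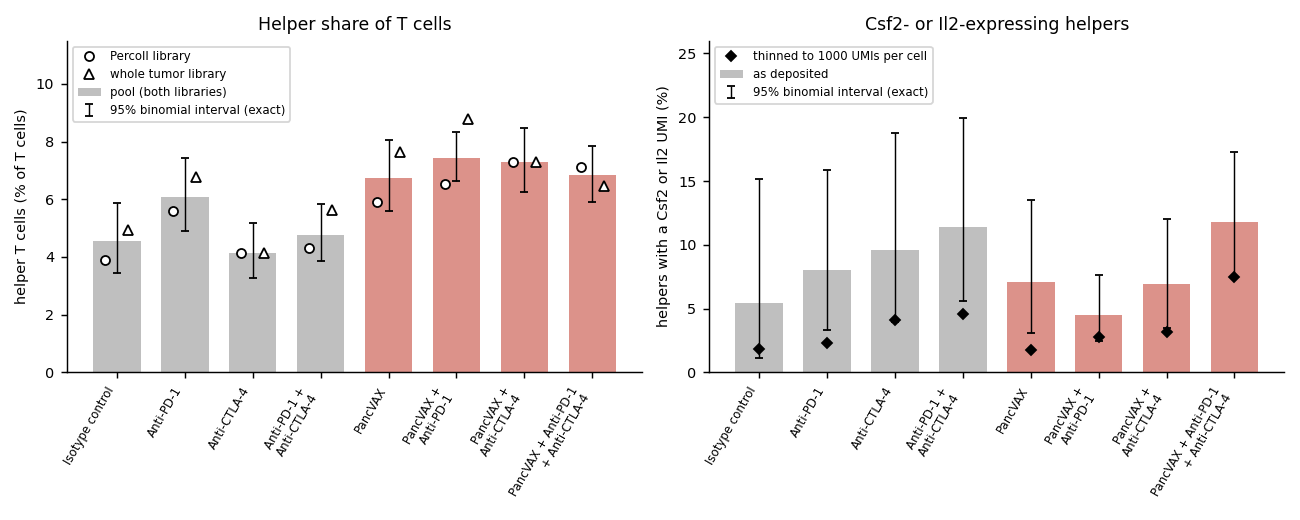
Helpers as a percent of T cells (left) and helpers with a Csf2 or Il2 UMI as a percent of helpers (right) in the 8 pools. Bars are the values as deposited with exact 95% intervals, which cover counting error only, circles and triangles are the Percoll and whole-tumor libraries, and diamonds are values after thinning to 1000 UMIs. The 4 pools with PancVAX (red) held 6.75%–7.45% helpers and the 4 without (grey) held 4.15%–6.07%, while the Csf2 or Il2 shares of both sets overlapped.

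The receptors and factors of helper function were unevenly detected. Bhlhe40, a factor needed for GM-CSF production, was found in 80.4% of helpers, and the lymphotoxin gene Ltb in 77.7%. The costimulatory receptors Tnfrsf4 (OX40) and Icos were found in 69.7% and 61.9%. Of the cytokines, Tnf was detected in 21.9% and Ifng in 21.6%, the latter against 35.5% of CD8 T cells and 3.72% of regulatory T cells. Tnfsf11, which encodes RANKL, was found in 27.0%. The cytokines of the other lineages were rare. Il13 was detected in 13 helpers, Il21 in 18, Il17a in 6, and Il4 and Il5 in 2 each, and Il3 and Il9 in none. Of the 8 genes in the list of inhibitory receptors, the most frequent were Ctla4 in 37.9%, Tigit in 37.7%, and Pdcd1, which encodes PD-1, in 31.2%. The others were less frequent, from Tox in 17.5% down to Cd160 in 2.10%.

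Helper subsets were counted by small gates, in which a cell with a UMI of any listed gene counts, after thinning each cell to 1000 UMIs so that deeper cells did not pass more often. The Th1 gate (Tbx21, Ifng, or Cxcr3) held 22.2% of helpers. The cytotoxic gate (Gzmb, Gzmk, or Prf1) held 15.2% and the cycling gate (Mki67 or Top2a) 12.6%. The gates for Th2 (Il4, Il5, Il13, or Il1rl1) and Tfh (Cxcr5, Il21, or Bcl6) held 2.10% and 1.71%. Of the 63 helpers in the unthinned Th2 gate 48 held Il1rl1, most frequent in clusters 5 (18.5%) and 4 (9.26%) described below. Outside the 3 clusters set apart below, the thinned Th2 and cytotoxic gates held 1.53% and 14.2%, and the Th1 and Tfh gates 24.8% and 1.89%. Unthinned, the Th1 gate held 47.2% and the cytotoxic gate 28.4%. A helper can fall in several gates, which are not cell types.

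None of these gates passed the correction between pools with and without PancVAX. A single gate at 0.0286, the smallest P that the design allows, could not have passed over 8 gates, and none reached it. The cytotoxic gate was 5.45%, 17.2%, 6.85%, and 12.5% without PancVAX and 15.0%, 14.2%, 17.6%, and 21.4% with it. The groups overlapped through the anti-PD-1 pool (exact permutation P = 0.114). The Th1 gate was 19.5% without and 23.0% with PancVAX (exact permutation P = 0.371). After adjustment over the 8 gates tested, the exact P was 0.686 for the cytotoxic gate and 0.8 for the Th1 gate.

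Clustering of the helpers gave 8 clusters, drawn without the 28 genes that PancVAX changed (below). Their leading genes are a description and were not tested. Cluster 1 was the largest, with 521 cells led by Ifitm1, Krt83, Ly6c2, Ifitm2, and Gramd3. Of these cells 435 came from pools with PancVAX, and Ifitm1, Ifitm2, and Gramd3 were among the 28 genes. Their lead is therefore not independent of the comparison by PancVAX. Ifitm1 was found in 34.2% of cluster 1, 37.0% of cluster 5, and 76.9% of cluster 8. Cluster 2 held 119 cells led by Ccl3, Gzmc, Ccl4, and Csf2. Cluster 3 (117 cells) was naive and central memory-like, with Igfbp4, Dapl1, and Tcf7 among the leading genes. Cluster 4 (108 cells) was regulatory-like and led by Ikzf2, which encodes Helios and was detected in 86.1% of its cells, with Cd40lg in 1.9%. Cluster 5 (81 cells) had a median of 16928 UMIs and was led by Ccn1 and Fn1. Of its cells 59 lay above the upper limits of the study and 88.9% held Krt18. Cluster 6 (56 cells) was cycling-like, cluster 7 (35 cells) was interferon-stimulated-like with Ifit3 and Ifit1, and cluster 8 held 13 cells led by S100a8. The marker genes of each cluster are shown in the heat map.

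**Figure D2:**
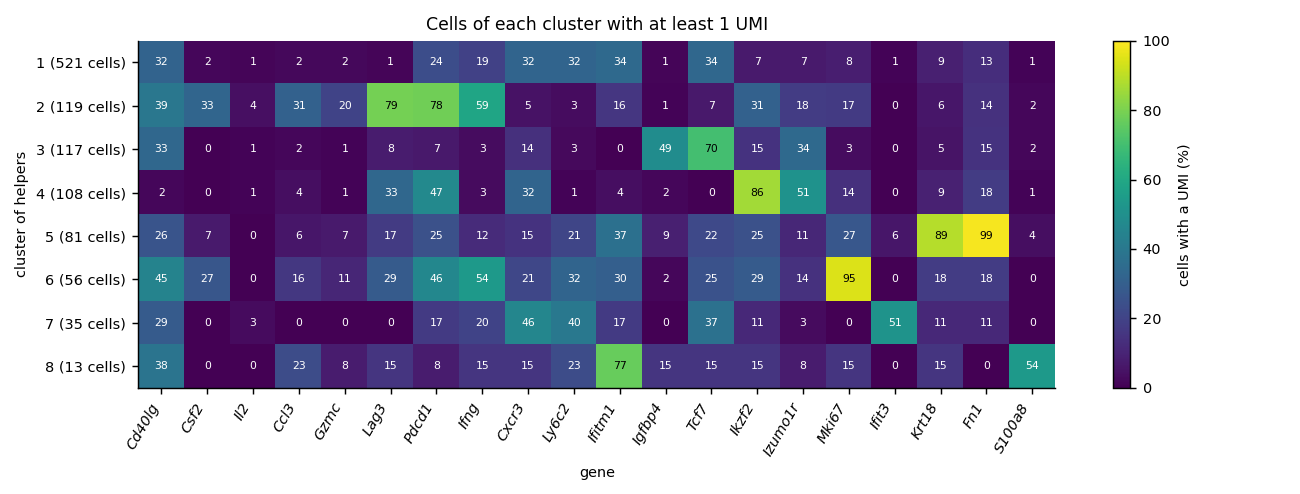
Percent of cells with a UMI of each gene (color scale and printed values) for 20 marker genes (columns) in the 8 clusters of helpers (rows, with the number of cells). Cluster 4 reached 86.1% for Ikzf2 with 1.9% for Cd40lg, cluster 5 reached 88.9% for Krt18, and Csf2 was most often detected in cluster 2.

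Clusters 4, 5, and 8 held 37.4% of all helper UMIs. The gene comparisons by agent and that of the Csf2 or Il2 helpers were therefore repeated on the 848 helpers outside them. The comparisons with regulatory and CD8 T cells were not repeated in this way. That set was chosen after the data were seen. Cluster 1 was 18.2%, 21.8%, 35.6%, and 35.2% of helpers without PancVAX and 52.2%, 63.2%, 61.0%, and 51.9% with it. The groups did not overlap, at means of 27.7% and 57.1% (exact permutation P = 0.0286, adjusted over 8 clusters 0.114). The regulatory-like cluster 4 was 16.6% of helpers without and 8.46% with PancVAX (exact permutation P = 0.0286, adjusted 0.114). Cluster 2, led by chemokine and granzyme genes and Csf2, was 16.3% without and 8.81% with PancVAX (exact permutation P = 0.0857, adjusted 0.229). Cluster 3 was 23.8% without and 8.05% with PancVAX (exact permutation P = 0.143). None of the 8 passed the correction. With 0.0286 the smallest P that the design allows, 1 or 2 clusters at it could not have passed. The size of cluster 1 depended on the clustering. With all variable genes, the genes changed by PancVAX included, the cluster led by Ifitm1 was 8.50% without and 40.2% with PancVAX. That setting used genes picked for their difference by PancVAX, so a gap was built in and is no further support. At a resolution of 1.0, one cluster with Ifitm1 among its leading genes was 3.77% and 21.0% (exact permutation P = 0.0286, adjusted 0.171) and another 10.5% and 17.1% (exact permutation P = 0.143).

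Helpers that expressed Csf2 or Il2 were few, and a small number of cells held most of the molecules. Csf2 was detected in 69 helpers with 805 UMIs in all, of which 28 cells held 1 UMI and the highest cell held 109. Il2 was detected in 15 helpers with 59 UMIs, 39 of them in 1 cell. Only 3 helpers held both, which leaves 81 (7.71%) with either. These cells were deeper, with a median of 5702 UMIs against 3362 in the other helpers, and 17 of them lay above the upper limits of the study. Cluster 2 held 41 of the 81 and the cycling-like cluster 6 held 15, so that 34.5% of cluster 2 and 26.8% of cluster 6 were such cells, against 3.07% of cluster 1.

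Single cells held a large part of the Csf2 UMIs of most pools. Csf2 was at 42.0, 90.2, 41.9, and 287 CPM (UMIs per 1000000 UMIs of the pool's helpers) without PancVAX and at 176, 125, 61.6, and 240 CPM with it. The highest cell of each pool held 12 of 12, 37 of 45, 10 of 12, and 109 of 155 Csf2 UMIs without PancVAX. With PancVAX it held 69 of 84, 79 of 190, 22 of 52, and 64 of 255. With that cell left out, the pools stood at 0, 16.7, 7.02, and 86.9 CPM and at 32.9, 73.5, 35.7, and 181 CPM. The pools with both antibodies remained the highest of each set.

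After thinning to 1000 UMIs, 1.82%, 2.30%, 4.11%, and 4.55% of helpers held Csf2 or Il2 without PancVAX and 1.77%, 2.78%, 3.14%, and 7.49% with it. These were 1, 2, 3, 4, 2, 8, 5, and 14 cells. Every pool with anti-CTLA-4 lay above every pool without it, at means of 4.82% ± 1.87% and 2.17% ± 0.473% (SD, n = 4 each). The difference was 2.66 points (exact permutation P = 0.0286, adjusted over 3 agents 0.0857), and 1.77 points without the pool given all 3 agents. Unthinned, the shares were 9.91% with and 6.27% without anti-CTLA-4 (exact permutation P = 0.0857), and the 4 pools overlapped. For anti-PD-1 the thinned shares were 4.28% with and 2.71% without (exact permutation P = 0.257), and the difference was 0.497 points without the pool given all 3 agents. In every pair of pools that differed in anti-PD-1 alone, the pool with it was the higher. The permutation test did not use these pairs. For PancVAX they were 3.79% with and 3.19% without (exact permutation P = 0.8), and the difference turned to -1.04 points when cells were not thinned and to -0.63 points without the pool given all 3 agents.

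Within the same pools, the RNA of the Csf2 or Il2 helpers was set against that of the other helpers by edgeR, with the pool as a block and Csf2 and Il2 themselves not read as results. Of 4984 genes tested, 67 were higher and 84 lower in the Csf2 or Il2 cells at an adjusted P below 0.05 and an absolute log2 fold change above 0.5. This is 3.03% of the genes tested, and these are the thresholds for every gene called changed below. The 81 cells, 3, 7, 7, 10, 8, 13, 11, and 22 per pool, gave 15954–151743 UMIs per pool and the others 268093–1386319. With each cell thinned to 1000 UMIs, the Csf2 or Il2 cells were chosen anew from the thinned counts. This left 39 such cells, only 1 of them in the isotype control pool, and put the rest of the 81 among the others. Of 1285 genes tested there, 19 were higher and 84 lower, and the median log2 difference of all genes was -0.30 against -0.09.

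Several ligands and cytokines were among the genes that were higher, beside others such as Scin, Plscr1, and Dusp14. Ccl1, a chemokine that attracts CCR8-bearing cells, had a median of 1330 CPM over the 8 pools (0–8375) in the Csf2 or Il2 cells and 27.2 CPM (14.8–354) in the others, and was higher in 7 of 8 pools. Its log2 difference was 4.43 ± 0.56 (SE, adjusted P = 3.03e-05, edgeR). Cd70, the ligand of CD27, was at 100 CPM (20.2–326) against 5.13 (0–15.9) and higher in all 8 pools, with a log2 difference of 4.06 ± 0.45. Penk, which encodes the opioid precursor proenkephalin, was at 1793 CPM (501–7821) against 176 (88.9–407), without overlap, and differed by a log2 of 3.14 ± 0.29 (adjusted P = 7.48e-07, edgeR). Tnfsf11 was at 597 CPM (172–931) against 140 (45.4–224) and differed by 1.80 ± 0.25. Ifng was at 541 CPM (53.6–1358) against 96.4 (51.9–284), higher in 7 of 8 pools, with a log2 difference of 1.82 ± 0.28 (adjusted P = 0.000356, edgeR).

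Of the 24 genes in the list of helper cytokines, 12 could be tested, and their median log2 difference was 1.36 against -0.09 over all genes. Ifng, Tnf, Lta, Il13, Ccl3, and Tnfsf11 rose and Ccl5 and Ltb fell. Lta, the soluble lymphotoxin, was higher in all 8 pools (1.82 ± 0.32, adjusted P = 0.00169, edgeR), and Tnf in 7 of 8 (1.29 ± 0.28). Il13 differed by 4.22 ± 0.90 but rested on 13 cells. Genes that follow activation of the receptor were mixed. Of 19 tested in the activation list, Dusp14, a phosphatase that dampens T cell receptor signaling, rose (3.05 ± 0.37) and Cd69 fell. Cd83 was outside the list and rose by a log2 of 1.85 ± 0.24. Cd40lg was at 102 CPM in the Csf2 or Il2 cells and 90.7 in the others, a log2 difference of -0.01 ± 0.25. The inhibitory receptors Lag3 (1.76 ± 0.40) and Pdcd1 (1.17 ± 0.27) rose, of 6 genes tested in that list. All 8 cycling genes had positive differences, with a median of 0.79, but none passed. On the helpers outside clusters 4, 5, and 8, Il2ra, Nr4a3, and Tnfrsf9 of the activation list rose as well and Cd28 fell, 4 and 2 of 17, and the cycling gene Pclaf rose. Ccl3 did not pass there, which left 5 of 12 helper cytokines higher.

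Some genes of recirculating cells were lower. Klf2, a factor that keeps T cells in circulation, was at 88.8 CPM (53.6–297) in the Csf2 or Il2 cells and 688 (537–1294) in the others, without overlap, a log2 difference of -2.55 ± 0.29 (adjusted P = 6.7e-06, edgeR). S1pr1, the receptor by which T cells leave tissue and a target of KLF2, was at 8.86 CPM (0–62.7) against 110 (43.1–163) and differed by -3.0 ± 0.43. Ccl5 was at 226 CPM (0–878) against 1576 (689–3284) and differed by -2.61 ± 0.32. Of 9 tested naive and central memory genes, Klf2, S1pr1, Il7r, and Lef1 fell and none rose. Outside clusters 4, 5, and 8, Satb1 and Tcf7 fell too, 6 of 8 tested, and within the study's upper limits also Igfbp4, 7 of 9. Within those limits 84 genes rose and 118 fell of all 3326 tested. Ccr7 of the same list was at a median of 506 CPM in the Csf2 or Il2 cells and 241 in the others, was higher in 6 of 8 pools, and did not pass (0.64 ± 0.33, adjusted P = 0.387, edgeR). Of 13 interferon-stimulated genes, Irf7 (-2.15), Ly6c2 (-3.14), and Bst2 (-0.90) fell and none rose. Ptn and Krt18, genes of stromal and epithelial cells, also fell, beside Cd74 and H2-Ab1 of the dendritic list and Dnajb1, Hspa1b, and Jun of the dissociation stress list. The part of such RNA in the other differences was not tested. On the helpers outside clusters 4, 5, and 8, 106 genes rose and 140 fell of 2884 tested (8.53%), and 107 of the 151 were among them. The calls ranged from 79 without the pool of PancVAX plus anti-PD-1 to 264 without that of PancVAX plus anti-CTLA-4. All 24 of the most significant genes were called with any pool left out, as the plot of these genes shows for both sets of helpers.

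**Figure D3:**
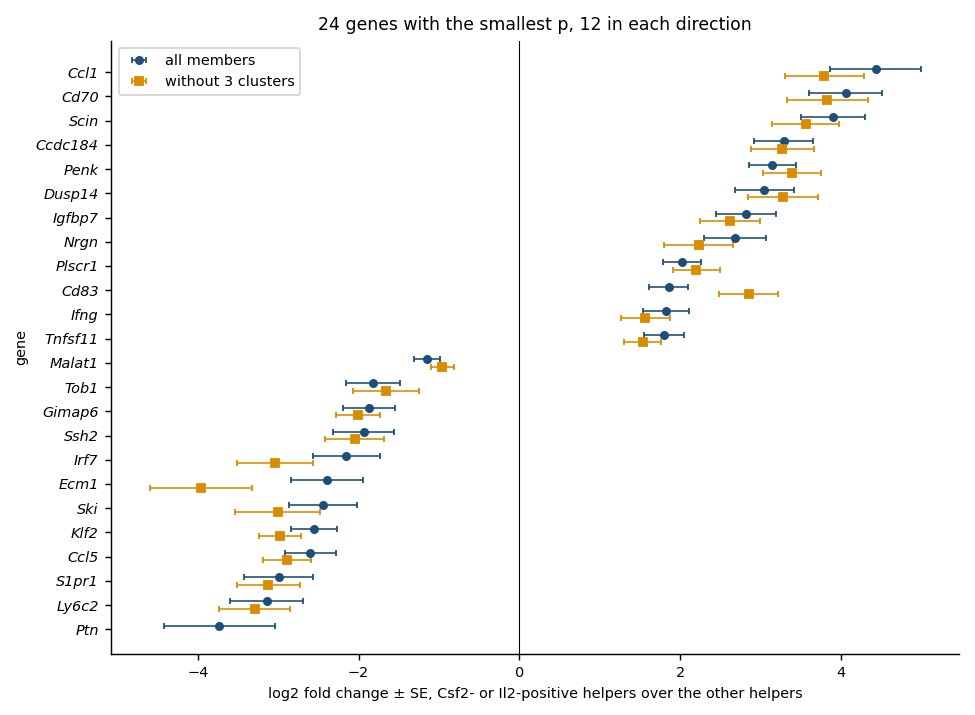
Log2 fold change (horizontal axis, ± SE) of the 12 most significant rises and 12 most significant falls in helpers with a Csf2 or Il2 UMI against other helpers of the same pool. Circles are all helpers and squares are helpers outside clusters 4, 5, and 8, where Ptn was not tested. Ccl1 (4.43), Cd70 (4.06), and Scin (3.90) had the highest values and Ptn (-3.74), Ly6c2 (-3.14), and S1pr1 (-3.0) the lowest.

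T cell receptor sequences were available for the 8 Percoll libraries. Of 541 helpers there, 462 (85.4%) had a β chain (TRB), and 410 of these also an α chain. Cells of 1 library that shared their TRBV segment and their CDR3, the loop that meets the peptide, were taken as a clone. There were 412 clones, of which 39 held 2 or more helpers, 89 cells in all. Only 3 helpers had a clone that a CD8 T cell of the library also held (0.649%) and 2 a clone held by a regulatory T cell (0.433%). The invariant TRAV11-TRAJ18 chain of NKT cells was found in 1 helper.

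The CDR3 of 6 expanded clones is shown for the contrast between those that lay mainly in cluster 2, with the Csf2 cells, and those that lay in cluster 1. Each line gives the CDR3 of the TRB chain as nucleotides, 5′ to 3′. The first and last 4 codons, mostly from the germline V and J segments, are in lower case, and capitals mark the middle, where the joined ends and added bases lie.
Clone 1: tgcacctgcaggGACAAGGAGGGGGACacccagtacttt
Clone 2: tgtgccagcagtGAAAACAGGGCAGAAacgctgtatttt
Clone 3: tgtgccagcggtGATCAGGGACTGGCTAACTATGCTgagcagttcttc
Clone 4: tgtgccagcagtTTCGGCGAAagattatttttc
Clone 7: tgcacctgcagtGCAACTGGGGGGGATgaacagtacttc
Clone 8: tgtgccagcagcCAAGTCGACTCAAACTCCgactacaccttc

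Clone 1 (TRBV1) was the largest, with 5 helpers from the pool given all 3 agents, 4 of them in cluster 2 and 2 with Csf2 or Il2. Clone 2 (TRBV13-3) held 4 helpers from PancVAX plus anti-PD-1, 3 of them in cluster 2 and 0 with Csf2 or Il2, and its TRBV and CDR3 were 1 of 3 such pairs found in helpers of 2 libraries. Clone 7 (TRBV1) held 3 helpers of the same pool, 2 in cluster 2 and 1 with Csf2 or Il2. Clones 3, 4, and 8 held 3 helpers each, and every one of these lay in cluster 1. They came from PancVAX plus anti-PD-1, PancVAX plus anti-CTLA-4, and anti-PD-1 alone. Over all clones, 33.3% of the 63 TRB-bearing helpers of cluster 2 were in an expanded clone, 20.4% of the 255 in cluster 1, 7.32% of the 41 in the naive-like cluster 3, and none of the 38 in the regulatory-like cluster 4. Among helpers with Csf2 or Il2, 10 of 40 (25%) were in an expanded clone, against 79 of 422 others (18.7%). Cells of a clone share an origin, so these shares carry no test.

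Repeats are found more readily in a larger library, and the share of expanded clones is therefore given as found and after an equal draw. The share of TRB-bearing helpers in a clone of 2 or more was 0%, 21.4%, 0%, and 4.76% without PancVAX and 8.70%, 29.7%, 23.4%, and 24.7% with it. When 16 helpers were drawn from each library (mean of 100 draws), it was 0%, 9.12%, 0%, and 2.12% without and 2.88%, 7.75%, 6.62%, and 7.00% with PancVAX. The drawn means were 2.81% and 6.06% and overlapped through the anti-PD-1 library (exact permutation P = 0.229). The difference was 3.25 points, and 5.35 without the anti-PD-1 library. Without the draw the means were 6.55% and 21.6% (exact permutation P = 0.0571). With clones defined by both chains and 14 helpers drawn, they were 2.82% and 3.64% (exact permutation P = 0.83).

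PancVAX changed 28 of 6644 genes tested in helpers (0.421%), 25 higher and 3 lower, by edgeR over the 8 pools with both antibodies as covariates. The interferon-induced transmembrane genes Ifitm1, Ifitm2, and Ifitm3, which restrict the entry of viruses into cells, rose, as did Lgals3 and Itgb1 of the 16 genes in the migration list. Ifitm2 was at 385, 387, 628, and 843 CPM without PancVAX and 1553, 1692, 1384, and 1606 CPM with it. Its groups did not overlap, and the log2 fold change was 1.54 ± 0.18 (adjusted P = 0.00542, edgeR). Ifitm1 was at 63.0, 341, 34.9, and 641 CPM without and 1404, 1482, 1290, and 1157 CPM with PancVAX (2.68 ± 0.47, adjusted P = 0.0322, edgeR). Ifitm3 was at 507, 477, 537, and 813 CPM without and 960, 1128, 934, and 1064 CPM with it (0.83 ± 0.14, adjusted P = 0.0291, edgeR). In each of these the pool with both antibodies was the highest of those without PancVAX.

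Lgals3, which encodes galectin-3, was at 116, 256, 161, and 313 CPM without PancVAX and 338, 639, 559, and 559 CPM with it (1.36 ± 0.18, adjusted P = 0.00542, edgeR). Itgb1, the β1 integrin chain, was at 273, 260, 297, and 308 CPM without and 581, 556, 509, and 498 CPM with it (0.91 ± 0.13, adjusted P = 0.0114, edgeR). Neither overlapped between groups. The sphingosine phosphate receptors S1pr4 and S1pr1, the latter the receptor by which T cells leave lymph nodes, also rose. S1pr4 was at 20.9–35.0 CPM without and 61.3–81.1 CPM with PancVAX (1.33 ± 0.21), and S1pr1 at 37.0–102 CPM and 104–143 CPM (0.98 ± 0.20). Within the study's upper limits S1pr1 did not pass (0.94 ± 0.25, adjusted P = 0.112, edgeR). Serpinb9, an inhibitor of granzyme B, rose by 1.28 ± 0.23, and Nrarp, a target of Notch signaling, by 2.06 ± 0.35. Slpi rose by 3.20 ± 0.45 from few molecules, at 3.49–4.01 CPM without and 12.6–65.0 CPM with PancVAX.

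Of the 3 falls, 2 were in genes of the regulatory T cell list. Ikzf2 was at 224, 112, 164, and 206 CPM without and 101, 77.8, 116, and 62.2 CPM with PancVAX, and the groups overlapped (-1.01 ± 0.20, adjusted P = 0.0461, edgeR). Izumo1r, the folate receptor 4 of regulatory T cells, was at 79.6–130 CPM without and 37.6–88.8 CPM with PancVAX (-0.86 ± 0.17, adjusted P = 0.0482, edgeR). Kcnk1, a potassium channel, was the third (-2.01 ± 0.40). Neither Ikzf2 nor Izumo1r was called once any pool was left out, and Kcnk1 was called in 1 of 8 omissions. The shares of the regulatory-like cluster 4 and the naive-like cluster 3 were also lower with PancVAX, as given above. Izumo1r was found in 50.9% of cluster 4 and 34.2% of cluster 3, and Ikzf2 in 86.1% and 14.5%. The part of either cluster in these falls was not tested. The summed regulatory list was at 1122–1822 CPM without and 1383–1570 CPM with PancVAX, with 2 of 9 tested genes lower, none higher, and a median log2 of -0.04.

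In all helpers the genes of helper function did not pass. Cd40lg was at 109, 126, 83.8, and 85.2 CPM without and 120, 88.3, 90.0, and 73.5 CPM with PancVAX (-0.16 ± 0.16). Csf2 differed by 0.47 ± 0.41 and Ifng by -0.16 ± 0.41, both within the spread of the pools. Of 14 helper cytokines tested, 0 rose and 0 fell, with a median log2 of -0.20 against 0.00 over all genes. Of all genes tested 0.421% were called, so a count of 0 or 1 in a list this short is no result about the list. Outside clusters 4, 5, and 8 the chemokine Ccl4 fell (-2.04 ± 0.48, adjusted P = 0.0325, edgeR). It was 1 of 13 tested there, beside 1.64% of all genes. Gzmb was at 0.88 ± 0.22 (adjusted P = 0.147, edgeR). Within the study's upper limits Gzmb rose (1.16 ± 0.21, adjusted P = 0.0202, edgeR). In the Th1 list 1 of 13 rose (Il18r1, a chain of the IL-18 receptor, 0.88 ± 0.16, median of the list 0.35), and within the upper limits 0 of 13 did (Il18r1 at 0.81 ± 0.18, adjusted P = 0.0542, edgeR). In the interferon-stimulated list 3 of 16 rose, the Ifitm genes, with a median of 0.26. Isg15 (0.25 ± 0.21) was among those that did not pass. In the migration list 2 of 16 rose, Itgb1 and Lgals3, with a median of 0.32. All 8 genes in the list of inhibitory receptors had negative values (median -0.31) and none passed. The 12 dissociation stress genes all had positive values (median 0.63) and Dnajb1 passed. Outside the 3 clusters and within the upper limits 10 of 12 were positive, Dnajb1 did not pass, and Atf3 rose in its place (1.31 ± 0.27 and 1.53 ± 0.28). Their sum was 5299–7099 CPM without and 6874–9134 CPM with PancVAX, and the part of this in the other genes was not tested.

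The number of calls moved with the helpers and pools that were used. Ifitm2, Lgals3, and Gramd3 were called with any pool left out, Itgb1 in 5 of 8 omissions, Ifitm1 in 4, S1pr4 in 3, Ifitm3 in 2, S1pr1 in 1, and Il18r1 and Dnajb1 in 0. Without the isotype control pool, the anti-PD-1 pool, or the pool of PancVAX plus anti-PD-1, 5 genes passed in each case. A fit over the 16 single libraries took preparation as a covariate and both libraries of a pool as replicates, although they may share mice. In it 29 genes passed, but not Ifitm3 (0.91 ± 0.25, adjusted P = 0.133, edgeR) or Izumo1r (-0.87 ± 0.25, adjusted P = 0.149, edgeR). On the 848 helpers outside clusters 4, 5, and 8, 58 genes rose and 22 fell of 4881 (1.64%), and 23 of the 28 were among them. There the migration list had 8 of 15 higher (Anxa1, Ccr2, Itgb1, Itgb7, Lgals3, S100a4, S100a6, and Vim), with a median log2 of 0.69 against -0.02 over all genes. Anxa1, which encodes annexin A1, was at 6.92, 6.20, 25.3, and 24.0 CPM without and 77.3, 70.4, 99.3, and 65.5 CPM with PancVAX (2.26 ± 0.33, adjusted P = 0.00104, edgeR). S100a6 was at 892, 790, 932, and 2013 CPM without and 2120, 2129, 2313, and 2382 CPM with it. Ccr7, the homing receptor of naive cells, was at 747, 520, 466, and 398 CPM without and 226, 170, 247, and 335 CPM with PancVAX (-1.12, adjusted P = 0.00649, edgeR), and Igfbp4 (-2.04) and Havcr2 (-1.45), which encodes TIM-3, also fell. Izumo1r fell by 1.37 on the log2 scale and Ikzf2, at -0.99, did not pass (adjusted P = 0.0798, edgeR). Spp1, which encodes osteopontin and is abundant in macrophages, fell (-2.37 ± 0.37, adjusted P = 0.0015, edgeR), and so did Tyrobp of the macrophage list (-1.70 ± 0.42). The mitochondrial genes mt-Co1 (-0.51), mt-Co3 (-0.54), mt-Cytb (-0.65), and mt-Nd4 (-0.56) fell as well, and their part and that of macrophage RNA in the other differences were not tested. Within the study's upper limits, 34 genes rose and 10 fell (0.902%). Among the 458 helpers with 2 or more Cd4 UMIs no gene passed, with 256 at an unadjusted P below 0.05, and 3 genes passed in the Percoll libraries and 0 in those of whole tumors, with 247 at an unadjusted P below 0.05. The plot of CPM by pool gives both sets of helpers.

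**Figure D4:**
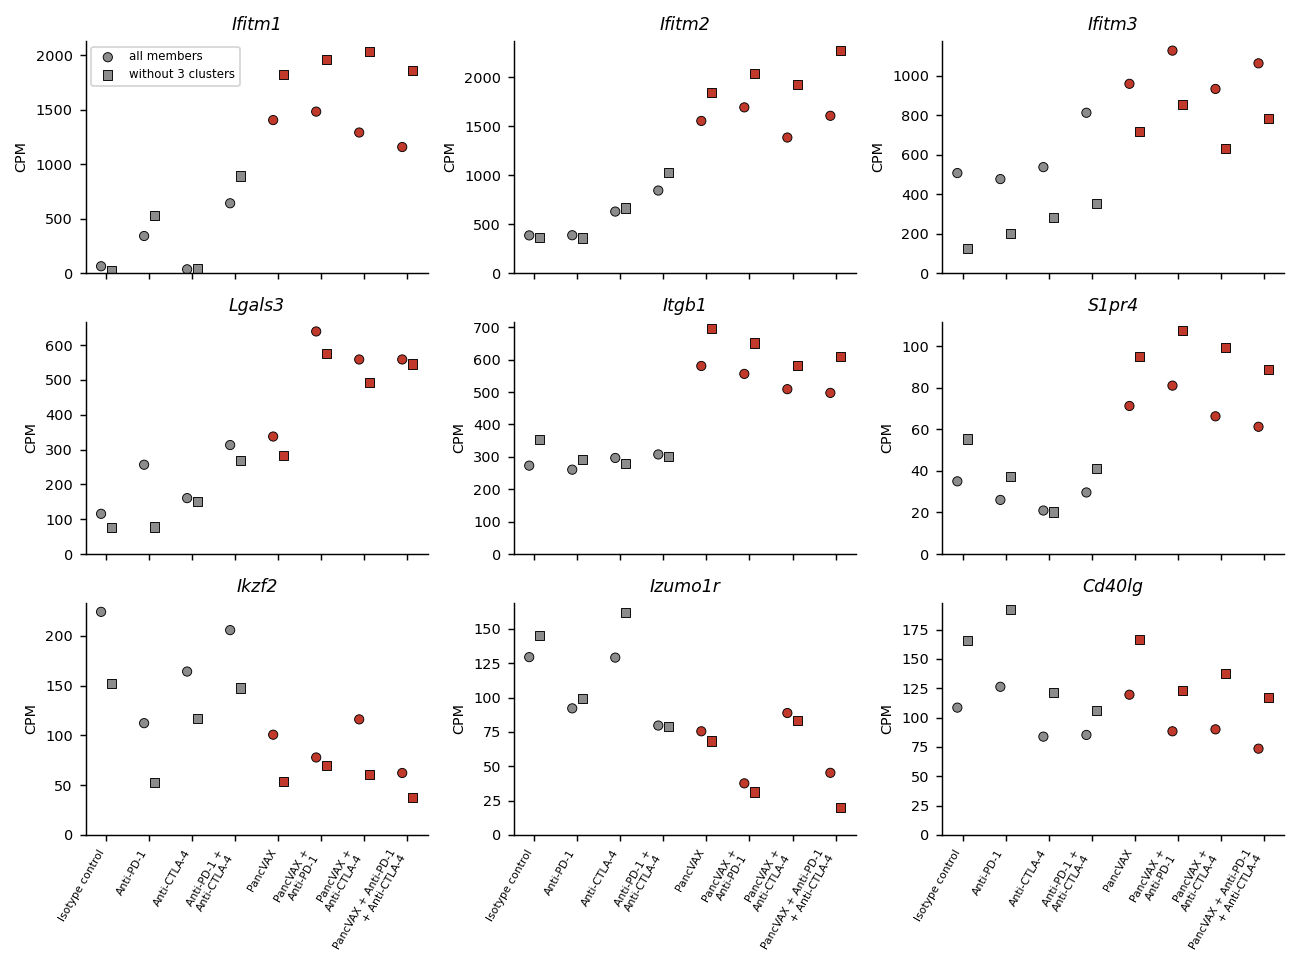
CPM of 9 genes (1 panel each, vertical axis from 0) in the helpers of the 8 pools, without PancVAX (grey) and with it (red). Circles are all helpers and squares are helpers outside clusters 4, 5, and 8. Ifitm1, Ifitm2, Ifitm3, Lgals3, Itgb1, and S1pr4 did not overlap between the groups of 4 pools in all helpers. Ikzf2 and Izumo1r did, and Cd40lg was at 83.8–126 CPM without and 73.5–120 CPM with PancVAX.

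Anti-PD-1 changed 6 of 6644 genes (0.0903%), 5 higher and 1 lower. Top2a, a topoisomerase of dividing cells, was at 91.0 and 97.7 CPM without antibody to PD-1 and 232 and 315 CPM with it in tumors not given PancVAX, and at 103 and 105 against 202 and 187 CPM with PancVAX. The log2 fold change was 1.13 ± 0.17 (adjusted P = 0.0299, edgeR). Rrm2, a subunit of ribonucleotide reductase, was at 16.8–30.8 CPM without and 74.4–83.7 CPM with anti-PD-1 (1.56 ± 0.22), and Aurkb (2.01 ± 0.32) and H2afx (1.28 ± 0.22) rose as well. All 8 genes of the cycling list had positive values, with a median of 0.87, and 1 passed. Over the 16 libraries with preparation as a covariate Aurkb alone passed, with Top2a at an adjusted P of 0.196 and Rrm2 at 0.256 (edgeR). Cst3 rose by 0.93 ± 0.15 and the chemokine Cxcl2 fell, at -1.97 ± 0.31. Cxcl2 was at 52.3–176 CPM without and 4.01–81.1 CPM with anti-PD-1, and the groups overlapped. It was also a leading gene of cluster 8 beside S100a8 and S100a9, and outside clusters 4, 5, and 8 it was too low to be tested. The summed neutrophil list was at 0–805 CPM in pools without anti-PD-1, highest in the isotype control pool, and 2.00–88.3 CPM in those with it, and its part in the fall of Cxcl2 was not tested. Cst3 is abundant in dendritic cells, and the summed dendritic list was at 335–2008 CPM in pools with anti-PD-1 and 455–1061 CPM in those without.

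Cst3 was at -0.18 in the helpers outside clusters 4, 5, and 8 and did not pass there. In those helpers anti-PD-1 raised 18 and lowered 9 of 4881 genes (0.553%), and 2 of the 6 were shared. Of 8 cycling genes 5 rose (Mki67, Pclaf, Stmn1, Top2a, and Tyms), with a median of 1.00. Csf2 was at 83.0, 139, 60.8, and 532 CPM without PancVAX and 44.6, 184, 101, and 385 CPM with it, and rose with anti-PD-1 by a log2 of 2.00 ± 0.23 (adjusted P = 0.000128, edgeR). Within each of the 4 pairs of pools that differed in anti-PD-1 alone, the pool with it was the higher. Single cells held much of this Csf2. The cell with 69 of the 84 Csf2 UMIs of the PancVAX pool lay in the clusters left out, which took that pool from 176 to 44.6 CPM. The cell with 109 of the 155 UMIs of the pool with both antibodies and no PancVAX was kept. In all helpers the value for Csf2 was 1.08 ± 0.42 (adjusted P = 0.59, edgeR), and within the upper limits 1.56 ± 0.31 (adjusted P = 0.314). With each cell thinned to 1000 UMIs it passed (1.89 ± 0.36, adjusted P = 0.00557, edgeR). Ecm1 (-2.85 ± 0.45) and the Th2 cytokine Il13 (-3.13) fell, and so did mt-Cytb (-0.63) and mt-Nd4 (-0.64). The fall of Il13 rests on few cells, as it was detected in only 13 of all helpers. In all helpers and within the upper limits no gene of the Th2 list passed for anti-PD-1. Fos of the 12 dissociation stress genes fell, 2 of the 12 had positive values, and their median was -0.50. The 5 macrophage genes tested had a median of -0.88, and none passed. The part of such RNA in the other differences was not tested. Within the upper limits of the study no gene passed for anti-PD-1, with 253 at an unadjusted P below 0.05. DESeq2 called 12 genes in all helpers. With the pool of both antibodies left out 0 passed, and 406 had an unadjusted P below 0.05. With the anti-PD-1 pool left out 16 passed.

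Anti-CTLA-4 changed 0 of 6644 genes (0.0%) by edgeR, with 258 at an unadjusted P below 0.05, and 0 by DESeq2, with 68. Ctla4 itself was at a log2 of 0.45 ± 0.17 and Icos, the costimulatory receptor, at 0.18 ± 0.15, and neither passed. In the helpers outside clusters 4, 5, and 8, 3 of 4881 genes rose (0.0615%). These were Csf2 (1.18 ± 0.22), the calmodulin-binding Nrgn (1.70 ± 0.29), and the heat shock gene Hspa1b (1.83 ± 0.34), each at an adjusted P of 0.0443 (edgeR). Csf2 was higher with anti-CTLA-4 in 3 of the 4 pairs of pools that differed in it alone, and at 60.8 against 83.0 CPM in the pair without PancVAX or anti-PD-1. The same kept cell held 109 of the 155 UMIs of the pool with both antibodies. In all helpers Csf2 was at 0.37 ± 0.41 and did not pass.

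The effect of PancVAX in helpers was then tested against its effect in the other T cells of the same pools. Against regulatory T cells, 0 of 5419 genes differed (0.0%) by edgeR and 0 by DESeq2, with 227 and 42 at an unadjusted P below 0.05. With no filter on low counts 22 genes differed. Within the study's upper limits 4 of 3792 did (0.105%), 2 higher and 2 lower in helpers, and Ifitm2 was one of the higher (2.04 ± 0.32, adjusted P = 0.00375, edgeR). Against CD8 T cells, the effect differed in 15 of 12208 genes (0.123%), 3 higher and 12 lower in helpers, and in 165 of 10537 (1.57%) within the upper limits of the study.

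Ifitm2 rose in helpers (1.54 ± 0.18) and was at 0.05 in CD8 T cells, a difference of effects of 1.53 (adjusted P = 0.000124, edgeR). Serpinb9 (1.28 against 0.12) and AA467197 (1.03 against -0.04) were the others with a higher value in helpers. Cd40lg stood at the other end. It was at 0.467, 0.746, 0.509, and 0.372 CPM in CD8 T cells without PancVAX and 4.36, 2.57, 5.47, and 2.92 CPM with it, a log2 fold change of 2.76 ± 0.33. In helpers it was at -0.16 ± 0.16, which gave a difference of -2.79 (adjusted P = 0.00082, edgeR), although helpers held 73.5 CPM or more in every pool. Of the genes of naive and memory-like T cells, S1pr1 rose in both (0.98 in helpers and 2.63 in CD8 T cells, difference -1.56). Tcf7 was at -0.61 and 0.68, and Slamf6 at -0.59 and 1.31. The chemokine receptor Cxcr3 was at 0.25 in helpers and 1.94 in CD8 T cells, and Ccl5 at 0.35 and 1.90. Slfn5 (-0.34 and 2.31), Ifi27l2a (-0.25 and 1.02), Ly6a (0.08 and 0.99), Maf (-0.49 and 1.05), and Rora (0.44 and 1.53) also had the higher value in CD8 T cells. Of 17 tested genes of the interferon-stimulated list, the effect was higher in helpers for Ifitm2 and lower for Ly6a. With any pool left out, 11–29 genes differed and 8 of the 14 named genes remained called, among them Ifitm2, Cd40lg, Cxcr3, and Ccl5, and Serpinb9 was called in 3 of 8 omissions. The plot of both effects shows the errors.

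**Figure D5:**
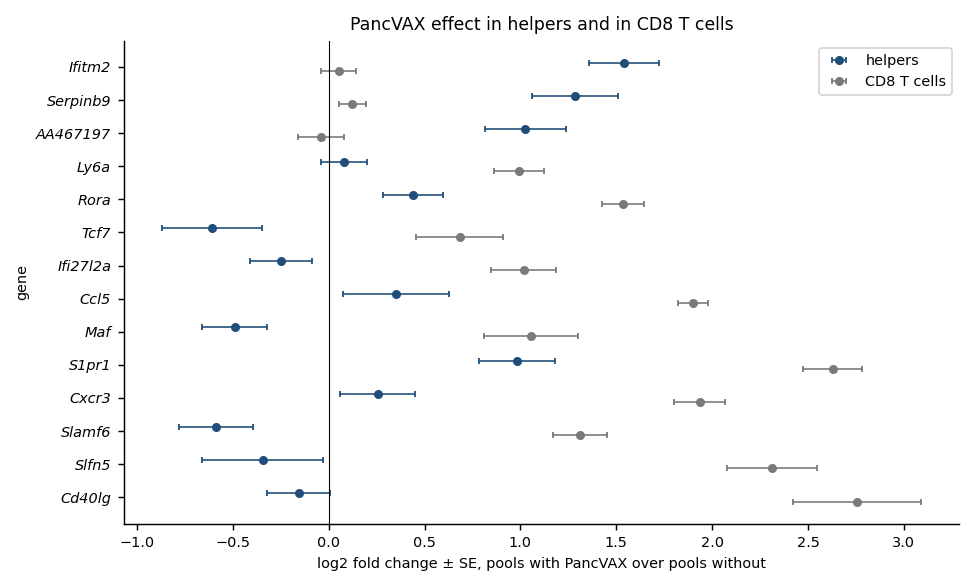
Log2 fold change with PancVAX (horizontal axis, ± SE) in helpers and in CD8 T cells of the same 8 pools, for the 14 named genes whose effects differed between them. Ifitm2, Serpinb9, and AA467197 had the higher value in helpers, and the other 11 had the higher value in CD8 T cells, with the widest gap for Cd40lg (-0.16 and 2.76).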

How the data were processed

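Single-cell RNA sequencing (5′ kit) of 16 libraries and T cell receptor sequencing of the 8 Percoll libraries were used. The authors aligned reads and counted UMIs with Cell Ranger 4.0.0 (the submitters' processing notes also name mm10 and Seurat) and deposited raw counts per gene and barcode for all libraries in 1 table. The suffix of a barcode gives its library, in the order of the sample descriptions. Receptor contigs were deposited per library with their V and J calls and CDR3. Growth, ELISpot, and flow cytometry data of the study were not analysed here.

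The members and the 22 gene lists were chosen with earlier results of these data known, and no list supports its own direction. Cells were kept at 1000 UMIs or more and under 10% mitochondrial UMIs, without the study's upper limits of 3000 genes and 10000 UMIs, which were an alternative. Doublets were not called, and high-UMI cells are described in the text instead. Libraries held 77132398–176233225 UMIs. Helpers held 5512203 UMIs, so that a pool summed 285804–1517503.

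Counts were summed by pool and tested with edgeR 4.0.16 (quasi-likelihood, TMM, filterByExpr) in R 4.3.3, with the other agents as covariates, or with the pool as a block within pools. P values were adjusted by the Benjamini-Hochberg method over all genes tested. A difference of effects between cell types came from a joint fit over pools and cell types, and the effects beside it from the fit of each type, so that they need not subtract exactly. The design differed from the study's tests, which took cells as replicates. Shares were tested over the 70 splits of 8 pools. Intervals are exact Clopper-Pearson at 95% and, like the limit that 3 counts set on a share of 0, cover counting error only. Helpers were clustered with scanpy 1.11.5 (2000 variable genes, 25 components, 20 neighbors, Leiden resolution 0.6). A cluster was named from 3 or more list markers among its 10 leading genes if a large enough part of that list was also raised. Cluster 1 had 3 interferon-stimulated markers among its leading genes but stayed unnamed, with 3 of the 18 list genes raised. Named genes were the 12 rises and 12 falls with the smallest P in each comparison, the marker genes, and list members, without predicted genes and receptor segments. Cd83, Gramd3, Cxcl2, and others beyond the lists are named under the first of these. Alternatives were DESeq2 1.42.0, RLE factors, no filter on low counts, single libraries with preparation as a covariate, each preparation, the upper limits, 2 or more Cd4 UMIs, thinning, and omission of each pool. The scripts were tested on simulated data. Results of a few list genes, and of the gates that use them, are not reported here. Mx1 of the interferon-stimulated list was not in the table used here.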

Additional observations from a re-analysis of the deposited data

Results flagged for a closer look

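Of 78 sets of 4 pools, 2 held a pool far from the other 3, and chance alone gives about 1 in 20. In pools without PancVAX, the thinned Th1 gate held 23.3% of helpers with anti-CTLA-4 and 18.2%–18.4% in the other 3. In the same pools, Il2 was at 161 CPM with anti-CTLA-4 and 3.70–14.0 CPM in the others, and 39 of its 46 UMIs lay in 1 cell.

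PancVAX had an effect in helpers that differed from its effect in CD8 T cells in 14 named genes, by a test of the difference itself (edgeR, adjusted P below 0.05). The helper effect minus the CD8 effect, on the log2 scale, was 1.53 for Ifitm2, 1.21 for Serpinb9, and 1.18 for AA467197. It was -2.79 for Cd40lg, -2.54 for Slfn5, -1.84 for Slamf6, -1.62 for Cxcr3, -1.56 for S1pr1, -1.46 for Maf, and -1.37 for Ccl5. For Ifi27l2a it was -1.22, for Tcf7 -1.21, for Rora -1.04, and for Ly6a -0.85. These values rest on 1050 helpers and 10917 CD8 T cells.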

How the results depend on the processing

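The labels number no replicates, so pools were not paired. Preparation, which the libraries of all treatments share, was a covariate over the 16 libraries and gave 29 genes for PancVAX, 1 for anti-PD-1, and 0 for anti-CTLA-4. Counts of called genes moved most. For PancVAX (28 called), 170 were called with no filter on low counts, 44 within the upper limits, 80 without clusters 4, 5, and 8, 3 after Percoll, and 0 in whole tumors and among helpers with 2 or more Cd4 UMIs. For anti-PD-1 (6 called) these settings gave 147, 0, 27, 0, 0, and 0 and DESeq2 gave 12. For anti-CTLA-4 (0 called), no filter gave 65, the upper limits and thinning 1 each, and leaving out the clusters 3. For the Csf2 or Il2 helpers (151 called), no filter gave 406 and leaving out the clusters 246. For the effect against regulatory T cells (0 called), no filter gave 22 and the upper limits 4, and against CD8 T cells (15 called) they gave 96 and 165. The cause of these moves was not tested.

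Omission of each pool in turn gave 5–20 genes for PancVAX, 0–16 for anti-PD-1, 0–3 for anti-CTLA-4, 79–264 for the Csf2 or Il2 helpers, 0–2 against regulatory T cells, and 11–29 against CD8 T cells. The helper share with PancVAX kept a difference of 1.96–2.60 points. That by anti-CTLA-4 ranged from -0.99 to 0.103 points and turned to 0.0135 with thinning and 0.235 after Percoll. Percoll minus whole tumor ranged from -1.07 to -0.66 points. The Csf2 or Il2 share by PancVAX ranged from -0.63 to 1.28 points and was -1.04 without thinning. The Th2 gate turned to 2.45 without thinning and 0.279 within the upper limits, and Cst3 with anti-PD-1 to -0.18 without the 3 clusters. With 4 pools against 4, the exact test cannot pass an adjustment over 3 agents unless another agent passes with it, and 1 to 14 Csf2 or Il2 cells per pool after thinning limit that share.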

Other observations

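Some effector genes differed in level between pools. Gzma, a granzyme, was detected in 49 helpers with 1662 UMIs in all. It was at 710, 12.0, 1082, and 1146 CPM without PancVAX and 6.29, 312, 36.7, and 15.1 CPM with it, and the groups overlapped. Gzmb was at 116, 72.1, 129, and 150.0 CPM without and 210, 165, 166, and 304 CPM with PancVAX, without overlap, and did not pass across all genes (adjusted P = 0.147, edgeR), but was called within the study's upper limits (1.16 ± 0.21, adjusted P = 0.0202, edgeR). Gzmb was not confined to effector-like cells, and was found in 43.5% of the regulatory-like cluster 4, 23.4% of cluster 1, and 21.0% of cluster 2. Gzmc was at 4.01–199 CPM without and 48.5–275 CPM with PancVAX, and the groups overlapped. The chemokine receptor Ccr2 was at 14.0–68.5 CPM without and 69.7–96.9 CPM with PancVAX, without overlap, and did not pass in all helpers (1.39 ± 0.33, adjusted P = 0.104, edgeR).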
